A study of Mus musculus with 4 samples.

Results

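Epithelial cells hold on to each other through junctions anchored to keratin filaments. In cells that are not epithelial, 10 genes of that machinery were followed: the simple epithelial keratins Krt7, Krt8, Krt18 and Krt19, the adherens junction cadherin Cdh1, the desmosome genes Dsp, Jup, Pkp1 and Pkp2, and the surface adhesion molecule Epcam. The members were all probe sets whose platform gene symbol is 1 of these 10 genes, 18 probe sets among the 34945, of 18193 genes, that carry a single symbol. The rule itself uses names and no signal value, but the genes were proposed with earlier results of these data known.

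Total RNA of mouse embryonic fibroblasts (MEFs), cells cultured from embryos, was hybridized to 4 Affymetrix 430 2.0 arrays of the mouse genome, 1 array for each of 4 groups. These were Wip1+/+ cells without irradiation, labelled 0 h, Wip1+/+ cells collected 4 h after 5 Gy of gamma radiation, and cells labelled Wip1-/- under the same 2 conditions. Wip1 is the phosphatase encoded by Ppm1d, and the series text names p53 target genes as its subject. No age, strain, sex, passage or allele design is given in the sources used here. No array holds unirradiated cells at 4 h, so radiation and 4 h of culture cannot be told apart. With 1 array in each group there is no measure of spread between cultures and no p-value; precision is limited by how few arrays there are. Ratios are set beside the SD that separates the log2 ratios of probe sets for 1 gene, taken over probe sets of like mean signal and called the SD between probe sets below. It measures how far probe sets of a gene disagree and no error between cultures. Its size also varied with the arrays compared. At a mean signal of 500 or more it was 0.18 for irradiation in Wip1+/+ cells and 0.54 in cells labelled Wip1-/-.

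Keratins form filaments from pairs of a type I and a type II chain. In simple epithelia Krt18 and Krt19 are type I and Krt8 and Krt7 type II, and Krt8 with Krt18 is the first pair made by the embryo. Desmosomes tie these filaments to the membrane: desmoplakin (Dsp) binds the keratins, and plakoglobin (Jup) and the plakophilins (Pkp1, Pkp2) link it to desmosomal cadherins. Cdh1, E-cadherin, and Epcam are surface proteins by which epithelial cells are commonly told from fibroblasts, which carry vimentin filaments in place of keratins.

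Facts on the arrays as a whole bear on every comparison below. The arrays had been scaled to one mean, and signals under 46.5, the 40th percentile of all values, were set to that floor before log2. Over 18 spike-in hybridization controls the SD of the log2 ratio was 0.44 to 0.47 in the 3 pairs of arrays that include the Wip1-/- unirradiated array and 0.07 to 0.10 in the other 3 pairs. Comparisons with that array are therefore given beside those without it. All 14 fibroblast marker genes of the list used here were above the floor on each of the 4 arrays. The genotype could not be checked on Ppm1d, since the site of its probes relative to the deletion is unknown here, and the knockout samples are called by their label.

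Of the 18 member probe sets, 9 passed a filter on mean signal, the median of all single-symbol probe sets (111.1), and they stand for 7 of the 10 genes. Krt8, Cdh1 and Epcam had none. The nearest probe set inside the filter was that of Pkp1, with a mean of 135.8, and the nearest outside were a Krt8 probe set at 109.2 and an Epcam probe set at 108.3. Counts over the 9 describe the brighter members alone. In bulk RNA a low signal from few cells that express a gene and a low signal from every cell cannot be told apart.

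**Figure D1:**
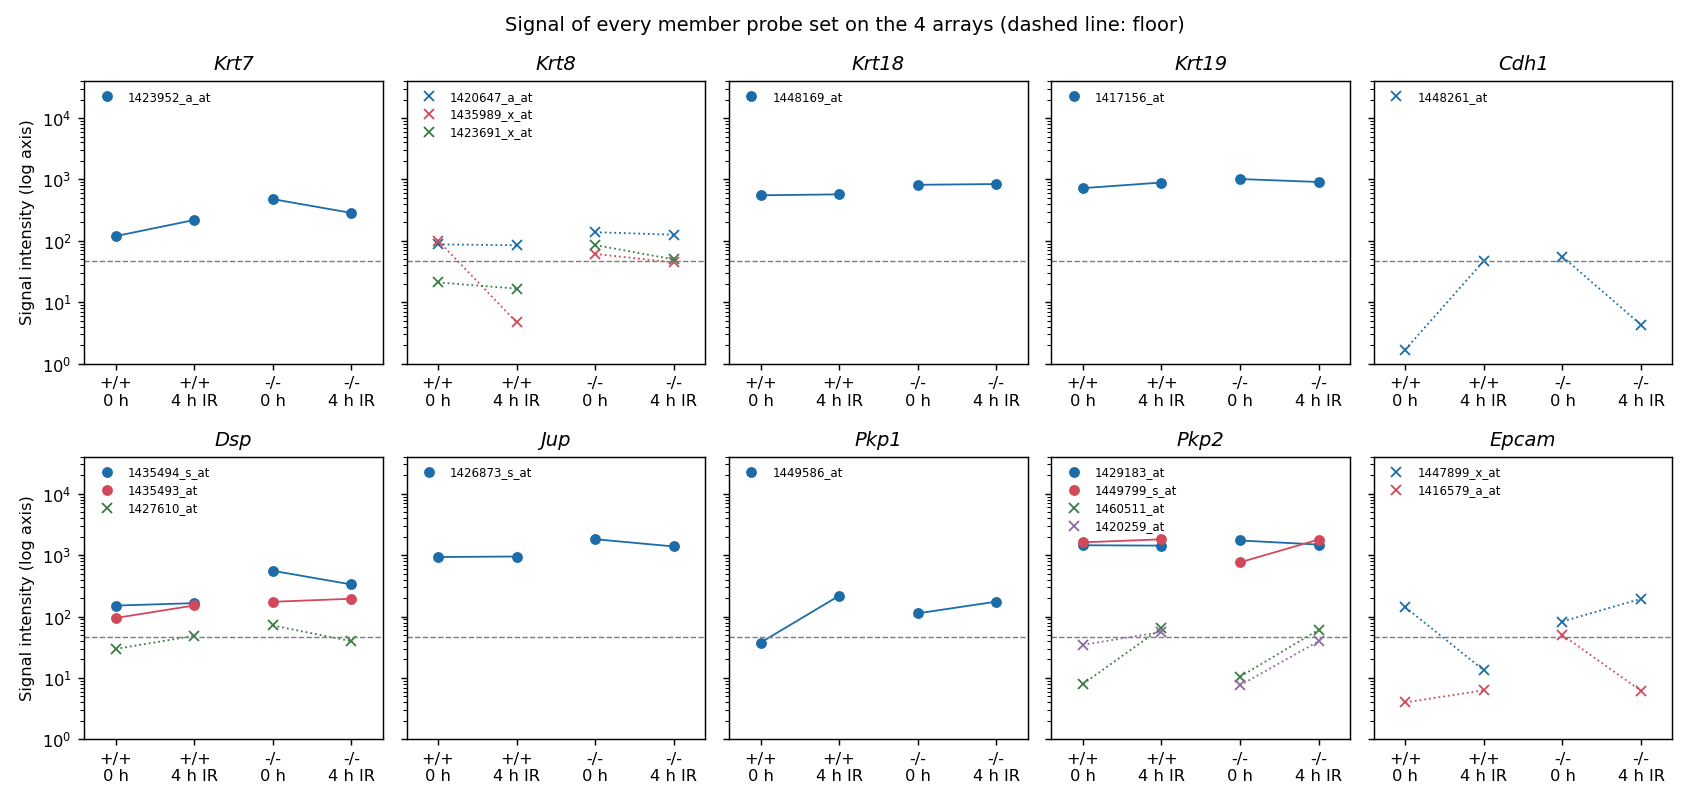
Signal intensity (log axis) of all 18 member probe sets on the 4 arrays, 1 panel per gene; +/+ and -/- are the genotype labels and 4 h IR the irradiated cells. Circles and solid lines are the 9 probe sets that passed the filter, crosses and dotted lines the others, and the dashed line is the floor at 46.5: Krt18, Krt19, Jup and the brighter probe sets of Pkp2 lie far above it on every array, while Cdh1 and 1 of the Epcam probe sets reach it on few.

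Cdh1 and Epcam, whose proteins mark epithelial cells, gave RNA signals at the limit of measurement, apart from 1 Epcam probe set. The single Cdh1 probe set read 1.7 on the unirradiated and 47.5 on the irradiated Wip1+/+ array, and 55.3 and 4.3 on the corresponding Wip1-/- arrays. Of these values 2 were just above the floor and 2 below, with no order by genotype or radiation. The _a_at probe set of Epcam read 4.0, 6.3, 49.9 and 6.2 in the same order, above the floor on 1 array. The other Epcam probe set (_x_at), whose suffix marks probes that can cross-hybridize, read 142.0, 13.3, 83.1 and 194.9. The 2 Epcam probe sets did not rank the arrays alike, so no direction is given for this gene.

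Keratin 18, which pairs with keratin 8 in one filament, was higher on both arrays labelled Wip1-/-, while the dim probe sets of Krt8 differed among themselves. Krt18 read 551.8 (unirradiated) and 571.7 (irradiated) with Wip1 intact, and 818.0 and 841.6 with the Wip1-/- label. The genotypes did not overlap, and the arrays of one genotype lay close together. Krt18 was thus 1.48-fold higher in cells labelled Wip1-/- before irradiation (log2 ratio 0.57, SD between probe sets 0.55) and 1.47-fold higher after it (log2 ratio 0.56, SD 0.23). The first ratio was barely above the SD between probe sets, and the second more than that.

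The brightest Krt8 probe set (_a_at) read 87.8 and 84.8 for Wip1+/+, unirradiated value first, and 138.4 and 125.9 for Wip1-/-. The genotypes did not overlap here either, with Wip1-/- 1.58-fold higher before irradiation and 1.48-fold higher after it, close to the ratios of its partner Krt18. The log2 ratios of 0.66 and 0.57 were within the SDs of 0.72 and 0.59 at this low signal. The other Krt8 probe sets both end in _x_at and lay near the floor. One read 21.0 and 16.7 against 85.3 and 49.9, and so was above the floor on the Wip1-/- arrays alone. The other read 101.0 and 4.7 against 61.3 and 44.5, with its highest value on a Wip1+/+ array, so no direction is given for Krt8 as a gene.

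Krt7 showed the widest range among the keratins. Its single probe set read 119.5 before and 218.5 after radiation in Wip1+/+ cells, but 478.1 before and 285.0 after in cells labelled Wip1-/-. Both arrays labelled Wip1-/- were above both Wip1+/+ arrays, with a wider gap before irradiation. Before irradiation it was 4.00-fold (log2 ratio 2.00, SD 0.59), and after it 1.30-fold (log2 ratio 0.38, SD 0.38), a ratio about as large as the SD between probe sets. The larger ratio rests on the Wip1-/- array with the deviant spike-in controls.

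Krt19, a type I keratin that lacks a tail domain, varied least of the keratins. Its signals were 721.7 and 890.8 for Wip1+/+ against 1015.1 and 909.0 for Wip1-/-, unirradiated first as in all pairs that follow. Wip1-/- was 1.41-fold higher before irradiation (log2 ratio 0.49, SD 0.55) and 1.02-fold higher after it, and neither ratio exceeded the SD between probe sets.

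Among the desmosome genes, plakoglobin and desmoplakin had the same order of genotypes. Jup, which serves both desmosomes and adherens junctions, read 931.9 and 950.2 for Wip1+/+ against 1815.5 and 1383.9 for Wip1-/-. It was 1.95-fold higher with the Wip1-/- label before irradiation (log2 ratio 0.96, SD 0.55) and 1.46-fold higher after it (log2 ratio 0.54, SD 0.23). Both ratios exceeded the SD between probe sets, and the 2 Wip1+/+ arrays differed by 1.02-fold. The single Jup probe set ends in _s_at, so the alternative that leaves out such probe sets holds none for Jup.

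Desmoplakin was seen by 3 probe sets. The brightest (_s_at) read 150.9 and 165.4 for Wip1+/+ against 556.3 and 333.3 for Wip1-/-, with no overlap. It was 3.69-fold higher before irradiation (log2 ratio 1.88, SD 0.59) and 2.02-fold higher after it (log2 ratio 1.01, SD 0.38). The next (the brighter _at) read 94.7 and 151.7 against 174.1 and 194.9, which is 1.84-fold higher before irradiation (log2 ratio 0.88, SD 0.72) and 1.28-fold after (log2 ratio 0.36, SD 0.59). It kept the order of genotypes with smaller ratios, of which the second was within the SD. The third, the dimmest, read 29.7 and 48.6 against 71.6 and 39.7, on both sides of the floor, with the genotypes overlapping.

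The plakophilins showed this order narrowly, in 1 probe set of Pkp2, or not at all. For Pkp2, an armadillo protein of desmosomes in simple epithelia and heart, the brightest _at probe set read 1448.6 and 1428.1 against 1732.3 and 1485.7, all 4 arrays within 1.21-fold. The _s_at probe set read 1616.1 and 1808.6 against 764.3 and 1794.6. It was 2.11-fold lower on the Wip1-/- unirradiated array than on the Wip1+/+ one (log2 ratio -1.08, SD 0.55), while the other bright probe set was 1.20-fold higher there. The 2 probe sets differ at that one array, the one whose controls stood apart, and each was within 1.04-fold between the irradiated arrays. The 2 dim Pkp2 probe sets read at most 65.0.

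Pkp1, the plakophilin of stratified epithelia, was not ordered by the genotype label. Its probe set read 37.6, below the floor, and 217.8 for Wip1+/+ against 112.7 and 175.0 for Wip1-/-. Both irradiated arrays were above both unirradiated ones. It passed the filter through the 3 arrays where it was above the floor, so that a difference from the array at the floor was built in.

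**Figure D2:**
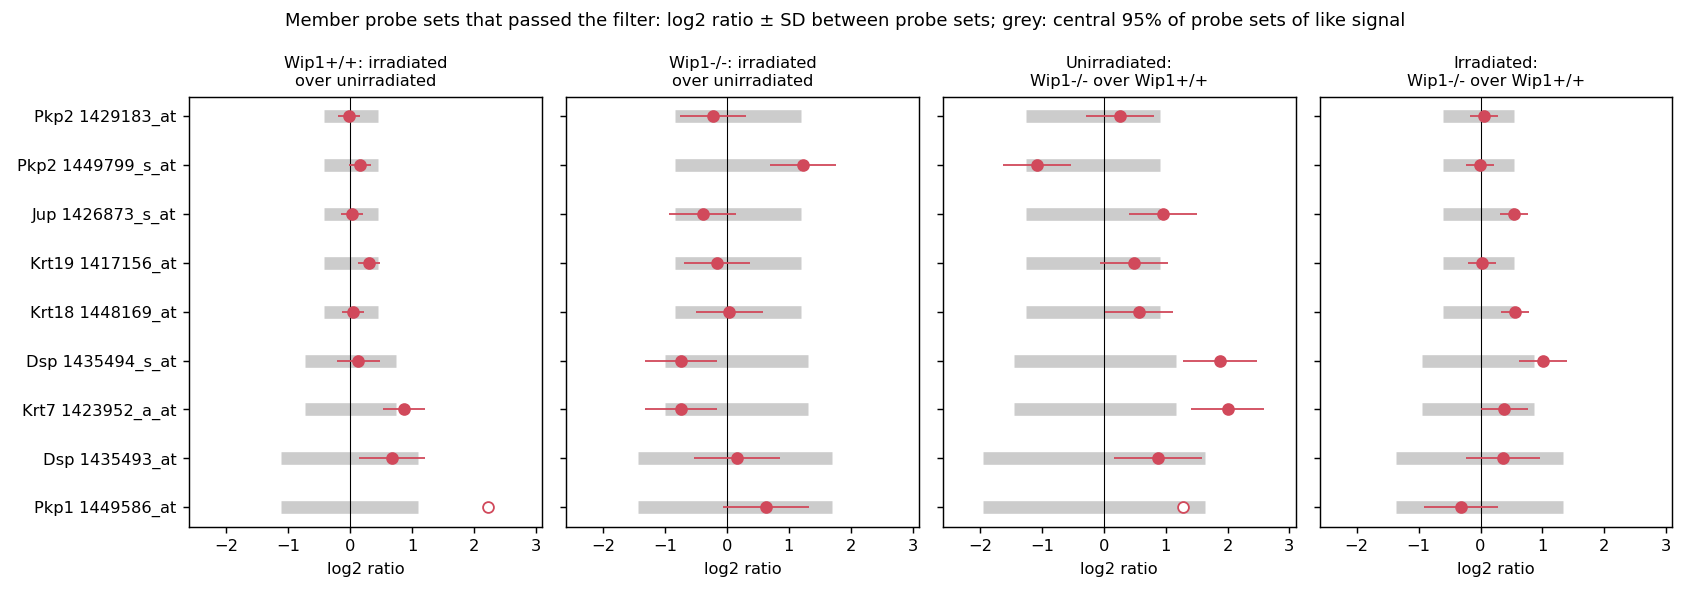
The log2 ratio in each of the 4 comparisons for the 9 member probe sets that passed the filter, in order of mean signal; bars are ± the SD between probe sets of a gene at like signal, open circles are lower bounds against the floor and have no bar, and grey bands span the central 95% of all probe sets in the same signal class. Krt7, Dsp (_s_at) and, by little, Jup lie above the grey band in the unirradiated genotype comparison, Dsp (_s_at) and, by little, Krt18 in the irradiated one, Krt7 and Pkp1 in the irradiation comparison of Wip1+/+ cells, and Pkp2 (_s_at), by little, in that of Wip1-/- cells.

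Set against all probe sets, the shared order of genotypes was frequent among the members. Both arrays labelled Wip1-/- were above both Wip1+/+ arrays in 7 of the 9 member probe sets that passed (Krt7, Krt18, Krt19, Jup, both of Dsp and Pkp2 _at), against 20.4% of all 17473 that passed. Within the class of mean signal of 500 or more, 4 of 5 did so, against 20.4% (19.2% reversed), and from 200 to 500, 2 of 2, against 19.3% (19.5% reversed). The reverse order held in 0 of the 9, against 19%. Of the 7, 2 separated by little: for Krt19 the nearest arrays of the 2 genotypes read 890.8 and 909.0, and for Pkp2 1448.6 and 1485.7. This count was added after the values were seen, and no test stands behind it.

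By size, 3 of the 9 were at least 2-fold higher with the Wip1-/- label before irradiation (Krt7, Dsp _s_at and, as a bound of at least 2.42-fold, Pkp1), against 3.69% of all, of which the call of Pkp1 was built in by the filter, and 1 was at least 2-fold lower (Pkp2 _s_at), against 6.68%. The log2 ratio was above 0 in 8 of the 9, against 50.9% of all. The median log2 ratio was 0.88, and 0.01 over all probe sets. On the irradiated arrays, which leave out the array with deviant controls, 1 was at least 2-fold higher (Dsp _s_at), against 1.76%, and 0 lower, against 1.93%. The log2 ratio was above 0 in 7 of the 9, against 51.1%. The median was 0.36 there, again against 0.01. It depended on the filter, at 0.04 with no filter (18 probe sets) and 0.06 with a filter at the 67th percentile (5 probe sets). Under the other alternatives it was 0.21 to 0.58. Taking the irradiated Wip1-/- array over the mean of both Wip1+/+ arrays moved Krt7 from 0.38 to 0.82 and Pkp1 from -0.32 to 0.80, since these genes differed between the Wip1+/+ arrays.

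The genotype comparisons share no array with each other, so their signs can be set side by side. Any lasting difference between the cells under the 2 labels would still enter both. A log2 ratio above 0 in both held for 7 of the 9 member probe sets, of 6 genes, and for 29.1% of all. These are the same 7 with both Wip1-/- arrays above both Wip1+/+ arrays. That order forces both signs, so this count adds nothing to the earlier one. A log2 ratio below 0 in both held for 1 of the 9 (Pkp2 _s_at) and for 27% of all. That Pkp2 value on the irradiated pair was -0.01 and turned to 0.01 under quantile normalization.

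**Figure D3:**
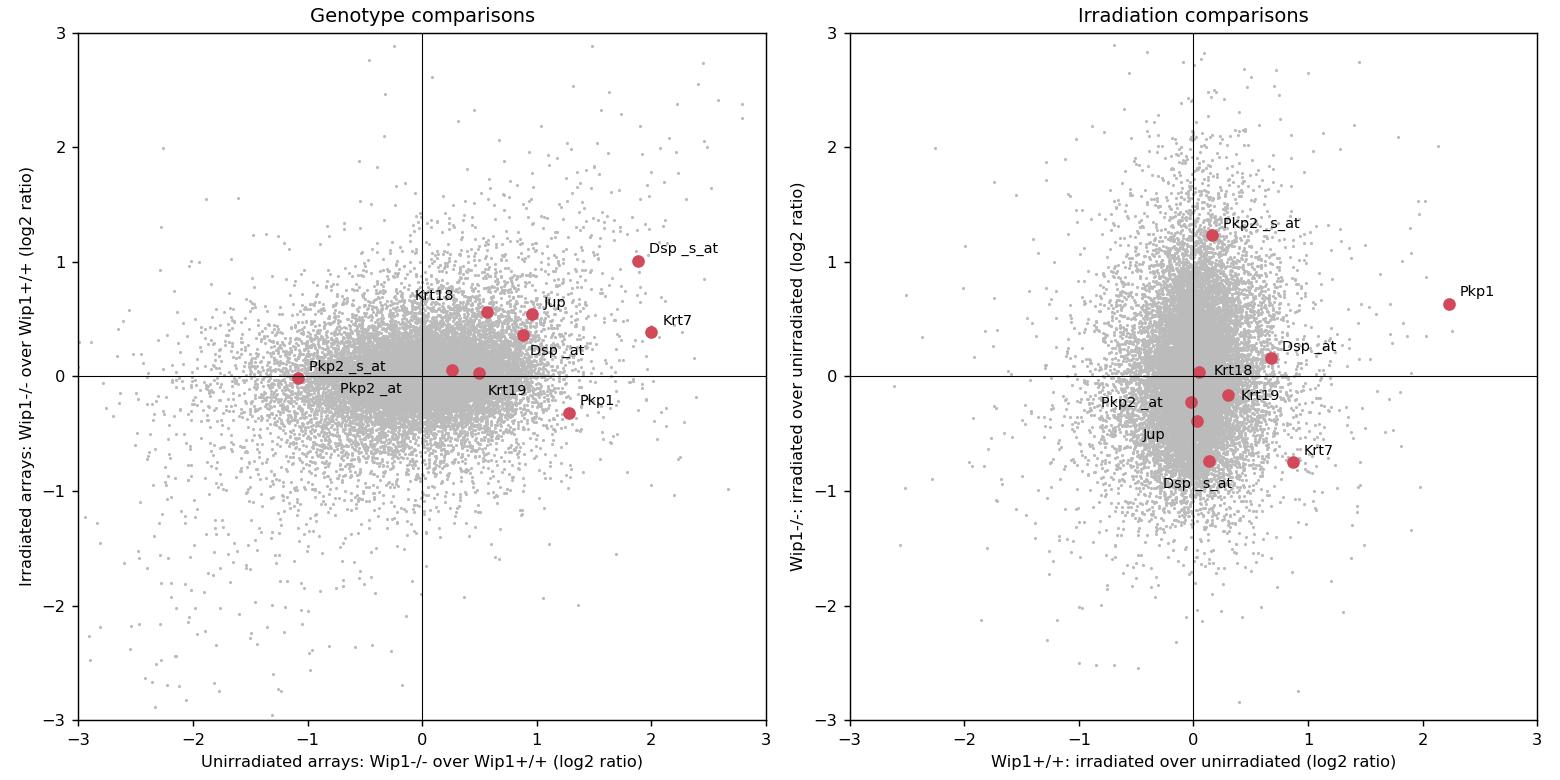
Log2 ratios of all 17473 probe sets that passed (grey) and of the 9 member probe sets (red), in the 2 genotype comparisons on the left and the 2 irradiation comparisons on the right; 33 and 4 probe sets lie outside the axes. In the genotype panel 7 of the 9 members lie above 0 on both axes, and in the irradiation panel 4 do, against 26.9% of all; 1 lies below 0 on both there, against 26.7%.

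The genes with a probe set that passed and stood higher on both Wip1-/- arrays lie on chromosomes 11, 13, 15 and 16. On mouse assembly GRCm38.p6, Krt7 and Krt18 lie within the keratin cluster of chromosome 15. Krt8, for which no direction is given, lies there too, 23.9 kb from Krt18. Krt19 and Jup lie 222.9 kb apart on chromosome 11, the chromosome of Ppm1d, at 14.8 and 15.0 Mb from it. Dsp is on chromosome 13 and Pkp2 on chromosome 16. Whether nearness to the targeted locus plays a part for Krt19 and Jup was not tested.

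Promoter sequence from RefSeq on the same assembly was matched for 6 of the 10 members and is shown for these 6, because Krt18, Krt7, Dsp and Jup shared the order of genotypes while Krt8, the partner of Krt18, and Epcam had no probe set that passed. Each run is the 250 bases before an annotated start, 5' to 3' on the strand of the gene. For Jup this start lies inside the span of the gene, which reaches base 100397839, so its run overlaps the gene. Capitals mark the E2-box CAGGTG or its reverse complement CACCTG, the sequence bound by the repressors of the Snail and Zeb families.
Krt8, chr15:102004343-102004592, minus strand: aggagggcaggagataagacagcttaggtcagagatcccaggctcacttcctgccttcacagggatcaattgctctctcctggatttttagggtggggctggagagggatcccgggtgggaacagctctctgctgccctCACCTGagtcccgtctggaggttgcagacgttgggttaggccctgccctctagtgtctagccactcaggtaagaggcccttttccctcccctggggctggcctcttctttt
Krt18, chr15:102027966-102028215, plus strand: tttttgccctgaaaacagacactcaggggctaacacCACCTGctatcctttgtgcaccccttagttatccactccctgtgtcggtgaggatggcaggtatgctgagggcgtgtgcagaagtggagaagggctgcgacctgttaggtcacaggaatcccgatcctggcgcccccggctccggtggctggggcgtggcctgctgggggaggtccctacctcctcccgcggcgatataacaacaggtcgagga
Krt7, chr15:101412153-101412402, plus strand: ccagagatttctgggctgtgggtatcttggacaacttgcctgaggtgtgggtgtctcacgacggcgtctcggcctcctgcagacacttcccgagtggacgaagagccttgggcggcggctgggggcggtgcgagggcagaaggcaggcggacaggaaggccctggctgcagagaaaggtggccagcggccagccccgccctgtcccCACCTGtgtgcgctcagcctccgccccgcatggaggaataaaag
Dsp, chr13:38151044-38151293, plus strand: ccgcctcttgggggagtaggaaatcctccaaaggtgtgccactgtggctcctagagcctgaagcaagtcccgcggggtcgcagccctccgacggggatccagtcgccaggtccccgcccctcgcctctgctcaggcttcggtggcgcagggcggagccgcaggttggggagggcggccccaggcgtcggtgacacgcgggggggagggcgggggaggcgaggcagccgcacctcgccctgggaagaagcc
Jup, chr11:100397791-100398040, minus strand: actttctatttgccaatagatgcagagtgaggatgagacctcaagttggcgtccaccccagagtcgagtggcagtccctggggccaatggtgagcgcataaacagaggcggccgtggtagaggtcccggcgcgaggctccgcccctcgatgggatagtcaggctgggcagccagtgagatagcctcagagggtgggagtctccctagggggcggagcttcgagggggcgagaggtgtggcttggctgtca
Epcam, chr17:87635729-87635978, plus strand: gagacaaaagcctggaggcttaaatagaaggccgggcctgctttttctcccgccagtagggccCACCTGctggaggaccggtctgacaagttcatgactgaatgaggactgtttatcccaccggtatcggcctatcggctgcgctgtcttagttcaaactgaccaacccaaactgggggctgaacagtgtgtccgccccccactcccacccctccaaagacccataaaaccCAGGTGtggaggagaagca

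In windows from 250 bases before to 50 after the start, 5 of the 6 held an E2-box on either strand, against 20.2% of 32851 promoter windows. Krt8 had it from 111 bases before the start, Krt18 from 214, Krt7 from 44, and Epcam from 187 and from 19 before. That of Dsp begins at base 4 after the start, outside the printed run. Jup had none in this window. The GC-box GGGCGG, with its reverse complement CCGCCC, was in the windows of Dsp, Epcam, Jup and Krt7 and in 35.7% of all. The AP-1 motif TGANTCA, which reads the same on both strands, was in none of the 6 and in 7.81% of all. The TATA motif TATAAA, or TTTATA, was in that of Krt8, overlapping itself at the start, and in 13.6% of all. These are matches of letters and not measured binding.

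Transcription factors known to repress epithelial genes, among them those of the Snail and Zeb families, were measured on the same arrays. All 9 genes of that list passed the filter, with 18 probe sets, of which 2 had both Wip1-/- arrays above both Wip1+/+ arrays and 2 the reverse. The median log2 ratio was 0.08 before and -0.09 after irradiation in the genotype comparisons. Snai1, the Snail repressor, read 1164.1 and 616.7 against 1176.7 and 652.0, so that both irradiated arrays were lower and the genotypes alike. Snai2, Slug, read 4178.8 and 5391.4 against 1357.9 and 5216.6, lower on the array with deviant controls alone; its other probe set had the same order of the unirradiated arrays, at 1069.8 and 602.4. Snai1 was chosen after its values were seen.

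Irradiation of Wip1+/+ cells was accompanied by small positive ratios for most members. The log2 ratio was above 0 in 8 of the 9 probe sets that passed, against 50.4% of all, with a median of 0.16 against 0.0017. Pkp1 was at least 4.68-fold higher, a bound against the floor, and the single member at least 2-fold higher, against 0.813% of all. Since the filter built that difference in, nothing is read from this count; 0 were at least 2-fold lower, against 0.87%. Krt7 was 1.83-fold higher (log2 ratio 0.87, SD 0.34), Dsp _at 1.60-fold (0.68, SD 0.53) and Krt19 1.23-fold (0.30, SD 0.18), each beyond the SD between probe sets. Krt18, Jup and Dsp _s_at were within it, at 1.04-, 1.02- and 1.10-fold.

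In cells labelled Wip1-/- the same members went both ways. The log2 ratio was above 0 in 4 of the 9, against 49.8% of all, with a median of -0.16 against -0.0025. Krt7 had a log2 ratio of -0.75 (SD 0.58) and Dsp _s_at one of -0.74 (SD 0.58), both beyond the SD, while the other Dsp probe set had 0.16 (SD 0.69). Jup had -0.39 and Krt19 -0.16, within the SD of 0.54. Pkp2 _s_at, with a log2 ratio of 1.23, was the single member at least 2-fold higher, against 5.73% of all, and 0 were lower by that much, against 2.64%; the other bright Pkp2 probe set had -0.22. Every ratio of this comparison uses the Wip1-/- unirradiated array, on which 5 of the 9 had their highest signal of the 4 arrays, against 37.5% of all, and 1 its lowest, against 36.5%.

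Across both genotypes, Pkp1 and Pkp2 _s_at were the members with both irradiated arrays above both unirradiated arrays, 2 of 9 against 16.8% of all. None had both below, against 16.2%. For Pkp1 the log2 ratio in cells labelled Wip1-/- was 0.63, within the SD of 0.69. Krt18 had log2 ratios of 0.05 and 0.04 to irradiation, the second of which turned negative, down to -0.01, under the other scalings.

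By distance between log2 signals over the 4 arrays, each centred on its own mean, the genes nearest to Pkp1, the member with the widest range, were BC034090, Hdgfl3, Rhbdf2, Trim7 and B130055M24Rik, at 0.48 to 0.58. For Pkp2 _at, the brightest member, they were Nicn1, Slc25a28, Ankrd54, Ergic2 and Fancf, at under 0.03. With so flat a profile, 2060 of 10173 genes lay within 0.25 of it, so that the nearest 5 mark no particular likeness.

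Most other genes of epithelial junctions were dim. Of 14 further desmosome genes 11 were on the array and 2 passed, Perp and Pkp4. Perp, a tetraspan desmosome protein and p53 target, went against the members: its signals were 930.6 and 1157.3 against 346.7 and 462.6, with log2 ratios of -1.42 and -1.32. Of 23 tight junction genes 22 were on the array and 4 passed. The brightest probe set of claudin 12 (Cldn12) read 2436.6 and 2772.1 against 894.6 and 2265.2. Its other probe set that passed read 1180.9 and 1138.9 against 1674.8 and 997.3, with the opposite direction on the unirradiated arrays. Occludin (Ocln), a membrane protein of tight junctions, read at most 34.6. Of 18 keratin genes of stratified epithelia 17 were on the array and 2 passed, Krt10, with log2 ratios of 0.10 and -0.10 between the genotypes, and Krt6a, below the floor on the Wip1-/- unirradiated array, and Krt14, a basal keratin, read at most 58.5. Of the 4 other simple keratins 2 passed: Krt20 had log2 ratios of -0.87 and -0.45 in the genotype comparisons and Krt80 0.04 and 0.82, the first lower and the second higher on both Wip1-/- arrays. Of 17 further epithelial surface, protease and splicing genes 2 passed: the brightest Cd24a probe set had log2 ratios of 0.38 and -0.18 between the genotypes and its others -0.04 and -0.10, and -0.71 and -0.42, and Spint2 0.89 and 0.33, with another Spint2 probe set at -1.76 and -0.07. Of 18 epithelial transcription factor genes 5 passed, with 6 probe sets, 1 higher and 3 lower on both Wip1-/- arrays; Elf3, an epithelial ETS factor, read 111.5 and 59.3 against 161.1 and 136.7. Occludin and Krt14 were chosen after their values were seen.

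Adherens junction genes, many of which fibroblasts also use, were mostly above the filter, with 13 of 15 genes passing. Of 27 probe sets that passed in that list, 1 had both Wip1-/- arrays above both Wip1+/+ arrays and 10 the reverse. Nectin1, an adhesion molecule of the immunoglobulin family, read 192.6 and 80.5 against 163.9 and 254.5, and Cdh3, P-cadherin, 200.2 and 193.3 against 95.2 and 161.4. The brightest probe set of Ctnnb1, beta-catenin, which shares its fold and partners with plakoglobin, read 21612.8 and 19859.8 against 26558.3 and 21154.9, with the genotypes overlapping. In the list of hemidesmosome genes 6 of 10 probe sets were higher on both Wip1-/- arrays and 1 lower. These 6 belong to 2 genes, Itga6, an integrin chain of hemidesmosomes, and Cd151, its tetraspanin partner. The brighter Itga6 probe set read 943.3 and 1011.8 against 1413.5 and 1366.9, the brightest of Cd151 5601.8 and 5630.2 against 7714.8 and 7571.7, and Plec, plectin, had log2 ratios of 0.33 and -0.10. Ctnnb1 and Itga6 were chosen after their values were seen.

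Lists of markers of other cell types differed in how far they followed the genotype label. All 17 macrophage probe sets that passed, of 12 genes among 15, were lower on both Wip1-/- arrays, and the summed signal of that list was 12284.8 and 12299.1 in Wip1+/+ cells against 3669.6 and 3214.5. Their log2 ratios at the brightest probe set ran, for example, to -2.33 and -2.89 for Lyz2, a lysozyme, and -3.41 and -2.87 for Ctss, a cathepsin, and the other 8 genes named by the same rule, Csf1r, C1qa, C1qb, C1qc, Adgre1, Tyrobp, Mpeg1 and Cd68, were lower too. The summed signal of 10 mesothelial markers, of a lining tissue that carries these same simple keratins, was 8459.9 and 9455.4 against 3423.9 and 5401.0, and without Efemp1, a sum added after the values were seen, 1070.5 and 1412.7 against 1382.3 and 1442.6. The median log2 ratio of its 6 probe sets that passed was 0.21 before and -0.19 after irradiation between the genotypes, with 2 higher and 2 lower on both Wip1-/- arrays. Most of the whole sum is Efemp1, which fibroblasts also make and which read 7389.4 and 8042.7 against 2041.6 and 3958.4. Cd200 read 57.1 and 56.6 against 137.2 and 232.7. The brightest Upk1b probe set read 167.3 and 369.4 against 173.3 and 207.5, and its probe sets disagreed. Another read 152.9 and 196.4 against 245.6 and 303.3, and another 180.1 and 141.5 against 132.0 and 89.9. Of the defining mesothelial genes, Msln read 111.2 and 116.9 against 107.8 and 45.7, Upk3b at most 100.5, and Wt1 between 57.0 and 92.0. The fibroblast list summed to 434754 and 412147 against 602723 and 445482, with 10 of its 23 probe sets higher on both Wip1-/- arrays and 2 lower, among these lumican (Lum) at 338.8 and 248.4 against 96.0 and 164.1. The 12 trophoblast and extraembryonic endoderm markers on the array, of 14, summed to 903.6 to 1256.9 with the genotypes overlapping, and Gata6 alone passed. The part that cell makeup has in the member values was not tested.

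**Figure D4:**
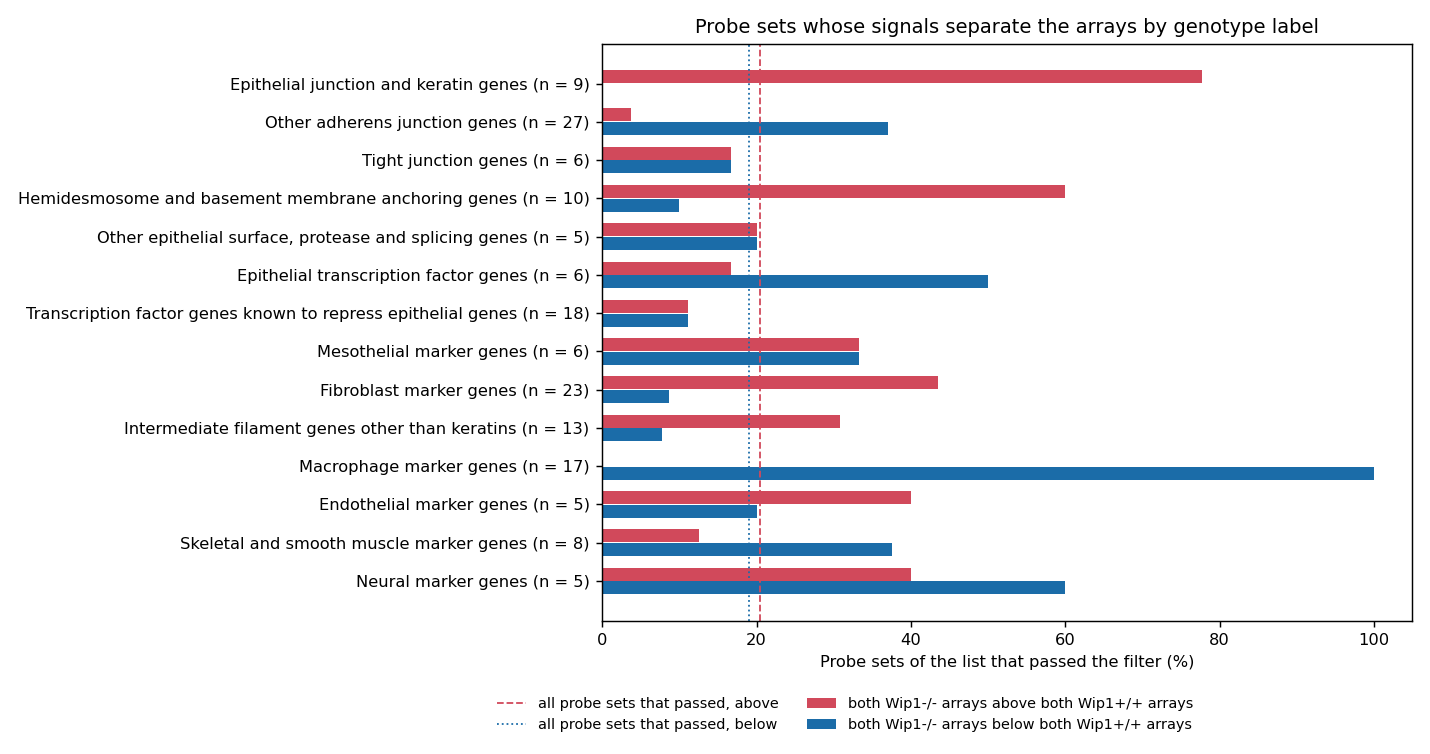
Share of the probe sets of each list (lists with at least 5 that passed the filter; n in brackets) with both Wip1-/- arrays above (red) or below (blue) both Wip1+/+ arrays; lines mark the shares over all 17473 probe sets, 20.4% and 19%. The epithelial junction and keratin genes, 7 of 9, reach 7 of 9 above, the hemidesmosome genes 6 of 10 and the fibroblast markers 10 of 23, while the macrophage markers are below in 17 of 17.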

How the data were processed

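RNA of mouse embryonic fibroblasts was measured on 4 arrays. Linear signal intensity per probe set and array was deposited by the authors. The submitters' processing notes name GCOS, Affymetrix's own program; its version, its settings and detection calls were not used here. The mean after trimming 2% at each end was 500.0 in each column, so the values were used as deposited.

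Names came from the platform's annotation; a look-up of gene identifiers in RefSeq on GRCm38.p6 changed 0 symbols. Those with several symbols (932) or none listed (9160) and 64 controls were left out. A floor was set at the 40th percentile of the pooled signals (46.5). Counts and medians run over probe sets with a mean of at least 111.1, the median. Comparisons are log2 ratios between 2 arrays, called at 2-fold, with no p-value. The script was tested on simulated data. R 4.3.3 with limma 3.58.1 normalized for the alternatives, and Python 3.11.15 did the rest. No column was left out.

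The members and lists were chosen with earlier results of these data known. Alternatives were quantile and cyclic loess normalization, scaling by brighter probe sets, other floors and filters, 1 probe set per gene and leaving out _x_at and _s_at probe sets. From other lists, genes are named whose brightest probe set was at least 2-fold apart in a comparison with both arrays above the floor, or else the 2 brightest; others were chosen after their values were seen, and the count of probe sets separated by genotype was added then.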

Additional observations from a re-analysis of the deposited data

Results flagged for a closer look

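Of the 9 member probe sets that passed, 4 had an irradiation ratio above 1 in Wip1+/+ cells and below 1 in cells labelled Wip1-/-. The share of all probe sets with this pattern was not computed. Both irradiation log2 ratios had the same sign in 5 of the 9, against 53.5% of all, so opposite signs were common on these arrays. The ratio was above 1 in Wip1+/+ cells for 8 of the 9, against 50.4% of all. It was above 1 in both genotypes for 4 of the 9, against 26.9% of all. The other Dsp probe set that passed was among these, with log2 ratios of 0.68 and 0.16. With 1 array in each group, the difference between genotypes was not tested. The log2 ratio to irradiation in Wip1-/- minus that in Wip1+/+ was -1.617 for Krt7, -0.8714 for Dsp _s_at, -0.463 for Krt19 and -0.4197 for Jup. The SD of this difference between probe sets of a gene was 0.68 at the signal of Krt7 and Dsp and 0.56 at that of Krt19 and Jup, so the last 2 lie within it. All 4 rest on the Wip1-/- unirradiated array, which had the highest signal of each. Over the 9 member probe sets that passed the filter the median difference was -0.46, against 0.01 over all.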

How the results depend on the processing

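For counts and medians, 88 values under alternatives stayed within 1.5 times the count or 1 SD between probe sets of the median, and 13 did not; for single probe sets 332 stayed and 46 did not. With no filter, members at least 2-fold apart numbered 3 for irradiation in Wip1+/+ (1 higher and 2 lower, the _x_at probe sets of Epcam and Krt8), 2 for irradiation in Wip1-/- and 2 for the irradiated genotypes, all higher. With a filter at the 67th percentile, which leaves 5 member probe sets, they numbered 0 for irradiation in Wip1+/+ and 0 for the irradiated genotypes. For the unirradiated genotypes 0 higher calls and 1 lower call (Pkp2 _s_at) were left, against 3 and 1 with the filter at the median. Both Wip1-/- arrays were above both Wip1+/+ arrays in 4 of these 5, and in 9 of all 18 with no filter. The shares over all probe sets under these filters were not computed. Without probe sets ending in _x_at or _s_at, which leaves 6, members at least 2-fold apart numbered 0 for irradiation in Wip1-/-. They numbered 2 for the unirradiated genotypes, both higher, and 0 for the irradiated ones. The median log2 ratio to irradiation in Wip1+/+ was then 0.49. With 1 probe set per gene 0 were left for irradiation in Wip1-/-, and with quantile normalization 0 for the irradiated genotypes. The smaller filters and sets lower counts by construction. With quantile normalization the call lost was Dsp _s_at, whose log2 ratio went from 1.01 to 0.98, just below the 2-fold limit. No member ratio past 2-fold changed sign under these alternatives. The other scalings moved the median of all probe sets by under 0.05. No paired analysis was possible because each group holds 1 array. Signal over background limits Cdh1, Epcam, Krt8 and Pkp1 most.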

Other observations

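Outside epithelial genes, Map2, a neuronal microtubule protein, read 93.1 and 76.3 for Wip1+/+, unirradiated first, against 508.4 and 506.4 for Wip1-/-, and Tubb3, neuronal tubulin, 538.1 and 328.3 against 130.2 and 192.3. Of 5 neural probe sets that passed, 2 were higher and 3 lower on both Wip1-/- arrays. Of 8 muscle probe sets 1 was higher and 3 lower. Myh11, smooth muscle myosin, read 503.0 and 479.5 against 207.7 and 441.6, and Actc1, cardiac actin, 164.0 and 139.7 against 91.3 and 191.8. Desmin (Des), a muscle intermediate filament protein that desmoplakin also anchors, read 461.8 and 501.0 against 1137.9 and 694.9, and of 13 probe sets of intermediate filament genes other than keratins 4 were higher and 1 lower. Of 5 endothelial probe sets 2 were higher and 1 lower, with Kdr, a VEGF receptor, at 129.6 and 147.4 against 264.4 and 149.2 and Emcn, endomucin, at 266.5 and 239.4 against 58.5 and 115.7.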
